A study of Mus musculus with 92 samples.

Results

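The 9 genes described here carry the 2 routes of antigen presentation by the major histocompatibility complex (MHC): H2-K1, H2-D1, H2-T23, B2m and Tap1 of class I, and H2-Aa, H2-Ab1, H2-Eb1 and Cd74 of class II. They were taken by symbol from a deposited table of 13441 genes, and all 9 were present. The table holds quadriceps muscle RNA of 92 DOz mice, an outbred stock in which each animal inherits its own mixture of founder alleles. All animals formed 1 group, with no genetic modification named and chow as the treatment given in the labels: they had eaten it for life and were about 18 to 20 weeks old, and neither sex nor genotype at the MHC is given in the labels. The questions open to these data were therefore how the 9 genes were distributed over animals, whether their values split as inherited haplotypes would, and which of them varied together.

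MHC class I molecules sit on nearly all nucleated cells and show peptides from inside the cell to cytotoxic T cells. Each is a heavy chain bound to beta-2 microglobulin and loaded with peptides that the TAP transporter moves into the endoplasmic reticulum, and interferons raise the transcription of all these parts. MHC class II molecules are pairs of an alpha and a beta chain, held together on their way to the endosome by the invariant chain, and are made mainly by macrophages, dendritic cells and B cells. The heavy chains and class II chains are among the most polymorphic genes of the mouse, and some inbred strains, C57BL/6J among them, carry a class II E alpha gene that is not expressed.

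In GENCODE M21 coordinates of the build GRCm38 (mm10), 7 of the 9 genes lay between positions 33996017 and 36032855 of chromosome 17. Cd74 lay on chromosome 18 and B2m on chromosome 2, so these 2 are inherited apart from the rest. The values were read as log2. Unlogged, they sum to a median of 1006085 per library, and whether they take gene length into account is not stated. The median value of a library ranged from 3.43 to 3.55, so the libraries were alike in overall level. The sequenced depth of each library is unknown, so the errors given are those between animals. Fast muscle myosin Myh4 and the other listed muscle genes summed to 71656 to 143879 unlogged units. Of the leukocyte markers looked for, 11 of 12 macrophage genes, 3 of 8 dendritic genes, 1 of 7 B cell genes and 0 of 11 T and NK cell genes were in the table.

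All 5 class I genes were measured in every animal, and the light chain varied least. B2m, the light chain shared by all class I molecules, ranged from 5.43 through a median of 5.93 to 6.97 on the deposited log2 scale. H2-D1, a classical heavy chain that presents peptides to CD8 T cells, ranged from 4.83 through 5.79 to 6.91. The other classical heavy chain in the set, H2-K1, ranged from 3.59 through 4.95 to 6.24. The highest animal for B2m stood 2.90-fold above the lowest, the smallest such fold of the 9 genes, and the corresponding fold was 4.25 for H2-D1 and 6.29 for H2-K1. H2-T23 encodes Qa-1, a non-classical heavy chain read by NK cell receptors, and ranged from 1.66 through 2.81 to 4.23. Tap1, a subunit of the peptide transporter, ranged from -0.13 through 1.35 to 3.33, an 11-fold span.

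Class II transcripts were present in every animal. Cd74, the invariant chain, ranged from 3.63 through a median of 4.88 to 6.74. H2-Aa, the alpha chain of the A molecule, ranged from 2.02 through 3.46 to 5.38, and its beta chain partner H2-Ab1 from 1.18 through 2.62 to 4.54. The beta chain of the E molecule, H2-Eb1, had the widest span of the 9 genes, from 1.32 through 3.17 to 5.18, which is 14.5-fold. The same animal, number 21, was the highest for B2m, H2-D1, H2-K1, H2-T23, H2-Aa and Cd74, and animal 84 for H2-Ab1 and H2-Eb1. Animal 30 was the lowest for B2m, H2-D1, H2-K1 and H2-Aa. In bulk muscle, fewer cells of a type and less RNA per cell cannot be told apart.

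**Figure D1:**
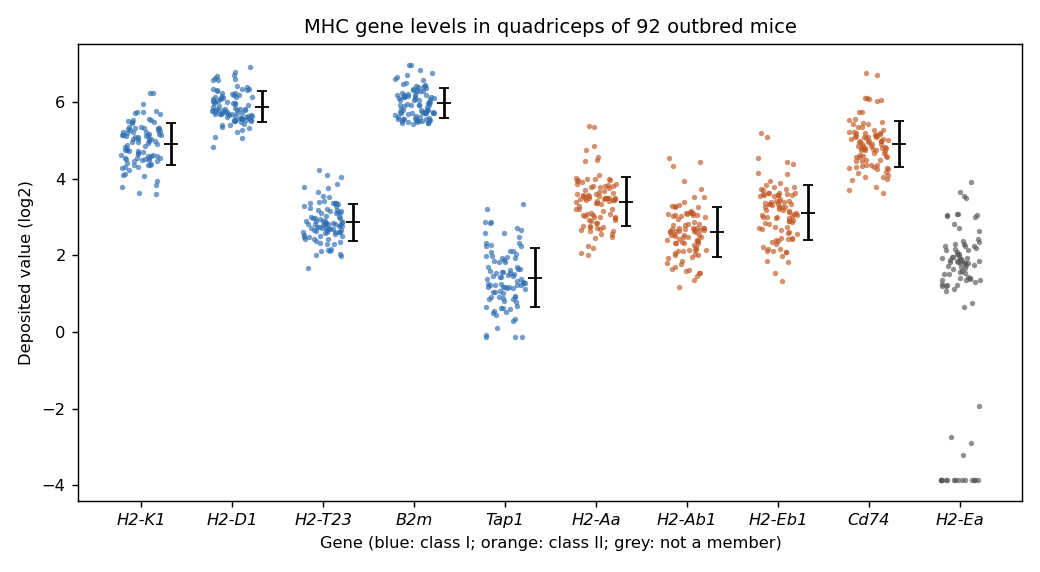
Deposited log2 value of each MHC gene in each of the 92 animals (1 point per animal, spread sideways for legibility), with mean and SD as bars for the 9 members. The members form single clouds, while H2-Ea, which is not a member, has 19 animals below and 73 above a gap of 2.56.

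Levels of different genes were compared after dividing by the merged exon length, on a log2 scale per kilobase. The order was B2m (6.19 ± 0.38, SD, n = 92), H2-D1 (4.5 ± 0.40), Cd74 (4.15 ± 0.60), H2-K1 (3.34 ± 0.55), H2-Eb1 (2.15 ± 0.71), H2-Aa (1.47 ± 0.64), H2-T23 (1.33 ± 0.49), H2-Ab1 (1.24 ± 0.65) and Tap1 (-1.03 ± 0.76). B2m stood above H2-D1 in 92 of 92 animals, by a within-animal difference of 1.69 ± 0.20, and Tap1 below H2-Ab1 in 92 of 92. The neighbours H2-D1 and Cd74 (0.35 ± 0.50), H2-Aa and H2-T23 (0.14 ± 0.62), and H2-T23 and H2-Ab1 (0.09 ± 0.59) differed by less than the spread over animals. As deposited, B2m stood above H2-D1 in 65 of 92 animals, by 0.11 ± 0.20, so the differences depend on the division by length. Whether the deposited values already hold such a division is not stated. Merged exon length may not be the length that the deposited values refer to, because the table labels its lines by transcript type, with "retained intron" for H2-T23 and Cd74.

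The promoters of several of these genes hold a shared set of short elements, which are shown because these genes covaried over animals. The windows are the 150 bases before the RefSeq start in the reference build GRCm38.p6, written 5′ to 3′ on the gene's strand, for 2 class I heavy chains, the light chain and 2 class II chains. They are C57BL/6J reference sequence, not that of the animals. Capitals mark 3 motifs searched on both strands: the X2 core TGACG, the Y box ATTGG and the interferon-stimulated element GAANNGAAA. In H2-Aa the X2 core was found on both strands in overlapping letters.
H2-K1 (chr17:34000348-34000497, minus strand): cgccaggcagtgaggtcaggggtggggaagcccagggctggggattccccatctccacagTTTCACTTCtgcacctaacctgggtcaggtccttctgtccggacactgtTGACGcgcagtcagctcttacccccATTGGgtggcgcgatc
H2-D1 (chr17:35262944-35263093, plus strand): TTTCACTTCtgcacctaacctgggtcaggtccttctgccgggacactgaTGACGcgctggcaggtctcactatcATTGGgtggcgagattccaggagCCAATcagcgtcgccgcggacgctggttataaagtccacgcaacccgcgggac
B2m (chr2:122147537-122147686, plus strand): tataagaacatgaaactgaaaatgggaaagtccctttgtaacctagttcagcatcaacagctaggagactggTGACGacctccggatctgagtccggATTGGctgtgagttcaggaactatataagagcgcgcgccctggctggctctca
H2-Aa (chr17:34287824-34287973, minus strand): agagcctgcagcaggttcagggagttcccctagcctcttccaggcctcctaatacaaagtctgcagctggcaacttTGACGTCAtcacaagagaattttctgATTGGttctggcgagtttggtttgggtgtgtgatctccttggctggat
H2-Eb1 (chr17:34305717-34305866, plus strand): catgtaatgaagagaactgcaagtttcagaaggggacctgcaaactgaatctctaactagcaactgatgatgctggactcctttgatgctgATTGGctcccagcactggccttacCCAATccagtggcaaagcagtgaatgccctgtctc

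Over the 250 bases before the start, RefSeq windows were at hand for 7 of the 9 members. TGACG followed by ATTGG at a distance of 14 to 24 bases was found in 4 of the 7, against 0.368% of 32851 RefSeq windows of the same length. The distance was 20 bases in H2-K1, H2-D1 and B2m and 21 bases in H2-Aa. H2-Eb1 and H2-T23 held the Y box without the X2 core. Tap1 held both, on opposite strands and not in this arrangement. The interferon-stimulated letters GAANNGAAA were found in H2-K1 and H2-D1 (6.31% of all windows). Other forms of the element were not searched, such as gaaactgaaa in the B2m window. A gene without a match may therefore still hold the element. By itself, TGACG is in 17.8% and ATTGG in 33.8% of windows. These are matches of letters and not measured binding.

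None of the 9 genes split into separate groups of animals. With a gap defined as a step of at least 1 between neighbouring sorted values with at least 5 animals on each side, 0 of 9 members had one, against 0.551% of all 13441 genes (74 genes). The widest step among members was 0.36, in H2-Aa, with 7 animals above it. A mixture of 2 normal distributions improved the Bayesian information criterion (BIC) over 1 normal by more than 10 for 0 of 9 members and for 4.11% of all genes. The members were nonetheless spread widely. All 9 had a larger SD than a smooth trend gives at their mean, by a median of 0.88 in log2 SD, and each lay between the 83.6 and 97 percentiles of all genes in that measure. Skewness was positive for 8 of 9, with H2-K1 the exception at -0.05.

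Animals high for 1 member were high for the others. The level of each member was used in turn as a predictor of every gene in the table (limma, slope in log2 per SD of the predictor, Benjamini-Hochberg adjustment over all genes), and a pair was called where both directions had an adjusted p under 0.05. All 36 pairs were called and all were positive, with a largest adjusted p of 0.0357. Rising calls over all genes came to 0.558% for H2-K1, 4.66% for H2-D1, 1.49% for H2-T23, 4.85% for B2m, 0.662% for Tap1, 6.58% for H2-Aa, 4.29% for H2-Ab1, 3.46% for H2-Eb1 and 7.63% for Cd74. With 3 principal components as covariates 17 of 36 pairs were called, and without animal 21, 33. The 3 lost without animal 21 were H2-T23 with H2-Eb1, H2-T23 with Cd74, and H2-K1 with H2-Eb1.

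The closest pairs were partners of 1 complex. H2-Aa and Cd74 had a Pearson's r of 0.944 and a Spearman's rho of 0.916 over 92 animals (permutation p of 1e-05 each, the smallest that 100000 resamples give), and r was 0.930 when the 2 most outlying animals for H2-Aa were left out. Their within-animal difference was -1.50 ± 0.21 (SD, n = 92) and stayed between -2.08 and -1.0. H2-Aa and its beta chain H2-Ab1 had an r of 0.890 (rho 0.890). H2-D1 and B2m had an r of 0.874 (rho 0.863) and the smallest spread of all 36 differences, -0.11 ± 0.20. Across the 6 class II pairs r ran from 0.765 to 0.944 with a median of 0.854, and across the 10 class I pairs from 0.414 to 0.874 with a median of 0.620. Between the classes, the 20 pairs ran from 0.347 (H2-T23 with H2-Eb1) to 0.598 (H2-D1 with H2-Eb1), with a median of 0.478. The differences between these medians were not tested, and the genes of a pair share their libraries.

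By the numbers in their titles, the animals form 5 runs of 33, 14, 21, 11 and 13, and the labels do not say what a run is. Between these runs 0 of 9 members were called (limma F test, smallest adjusted p 0.767), which is also what the share of 0.0149% over all genes gives. At an unadjusted p under 0.05 there were 0 of 9, against 8.33% of all genes. All 36 pairs had a positive r within each of the 5 runs, the lowest being 0.0473. Within class II the lowest within-run r was 0.673.

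Part of this covariation ran along with scores of cell type markers and of interferon-response genes. Each score is the mean of the standardised genes of a list that holds no member. When 6 scores (macrophage, dendritic, endothelial, fibroblast, adipocyte, interferon) had been regressed out, r of the class II pairs was 0.667 to 0.901, of the class I pairs -0.05 to 0.672, and between classes -0.02 to 0.483. With the same scores as covariates, 13 of 36 pairs were called: all 6 of class II, H2-K1 with H2-D1, B2m, Tap1 and H2-Aa, and H2-D1 with B2m, Tap1 and H2-Eb1. None of the 8 pairs of H2-T23 was among them.

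**Figure D2:**
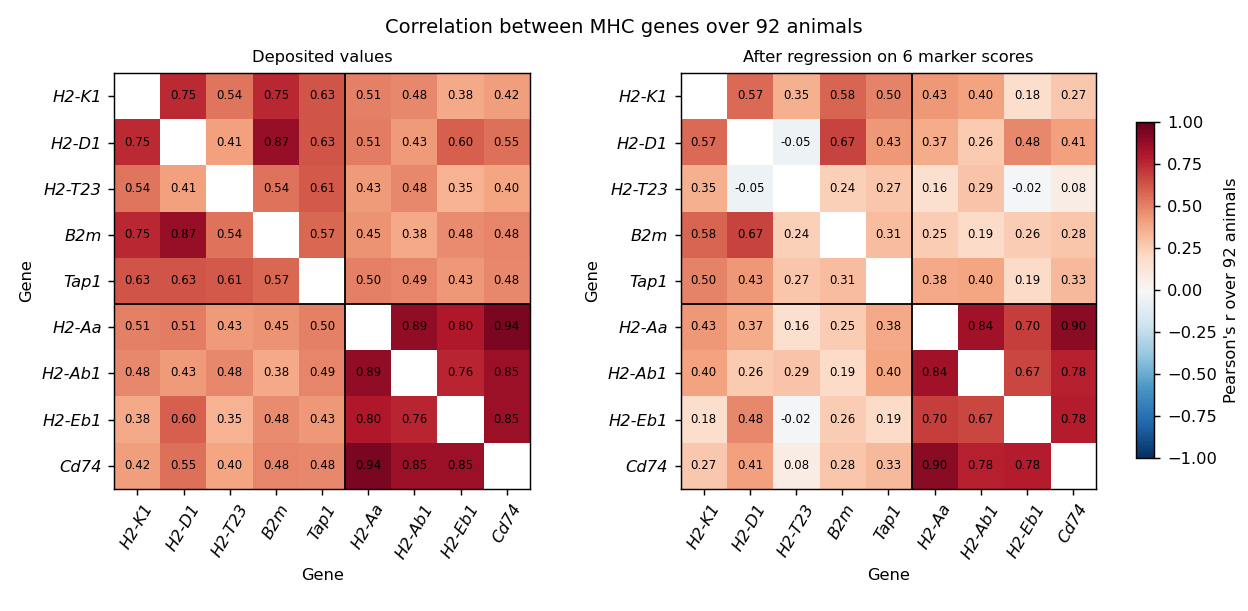
Pearson's r between the 9 MHC genes over 92 animals, from the deposited values (left) and after regression on the 6 scores (right); black lines divide class I from class II. The class II block stays between 0.67 and 0.90 on the right, while the row of H2-T23 falls to between -0.05 and 0.35.

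The genes outside the set that were most like each member differed by class. The measure was Pearson's r over 92 animals among genes with a mean of at least 1. H2-Q4, a class I heavy chain of the Q region, came first for H2-K1 (r = 0.740), H2-D1 (0.777), B2m (0.776) and Tap1 (0.721). Gbp2, an interferon-inducible GTPase, was in the first 3 for all 5 class I genes, and Igtp, another such GTPase, came first for H2-T23 (0.651). Psmb8, a catalytic subunit of the immunoproteasome, was in the first 3 for H2-D1 (0.746) and B2m (0.738). For the class II genes the nearest above that mean were leukocyte genes: Laptm5 for H2-Aa (0.656), Lyz2, the macrophage lysozyme, for H2-Ab1 (0.616), Mpeg1, a pore-forming protein of macrophages, for H2-Eb1 (0.548), and Nckap1l, a blood-cell actin regulator, for Cd74 (0.686). Within the 5 runs of title numbers, r went down to -0.03 for Laptm5 with H2-Aa and to 0.16 for Mpeg1 with H2-Eb1. It went down to 0.26 for Lyz2 with H2-Ab1 and to 0.46 for Nckap1l with Cd74. Over all 92 animals, the lowest r for all 4 class II genes was with Etf1, a translation release factor (-0.607 with Cd74). H2-DMb1, a class II machinery gene below the limit with a mean of 0.08, had a higher r than the leukocyte genes named with all 4 class II genes: 0.719 with H2-Aa, 0.650 with H2-Ab1, 0.655 with H2-Eb1 and 0.744 with Cd74.

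Sequence shared between copies bears on the H2-Q4 result. Of the 31-base words in the GENCODE M21 transcripts of H2-Q4, 53% occur in another gene too. The share was 22.8% for H2-K1 and 26.9% for H2-D1, with 11.1% of the H2-K1 words in H2-D1, and 25.8% for H2-T23. It was 0% for B2m, 4.09% for Tap1 and at most 1.41% for the 4 class II genes. Reads of the class I heavy chains can therefore be divided uncertainly between copies, and polymorphic founder alleles can match the reference unequally. The part of either in the values was not tested.

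All 9 members rose with both the interferon and the macrophage score, and a model with both was then fitted. Taken singly, the interferon score (20 genes, Irf1 among them) was called for 9 of 9 members, all rising, against 2.88% of all genes, and the macrophage score (11 genes, such as Csf1r and C1qa) for 9 of 9, against 12%. Within the 5 runs of title numbers, the lowest r of a member with the macrophage score was -0.02, for H2-K1. The 2 scores had an r of 0.489 with each other. In a model with both scores, the interferon slope was called for the 5 class I genes and for 0 of 4 class II genes (0.513% of all genes rising), and the macrophage slope for the 4 class II genes and for 0 of 5 class I genes (10% of all genes rising). The interferon slopes of the class I genes ran from 0.23 ± 0.04 (SE) for H2-D1 to 0.52 ± 0.07 for Tap1. The interferon slopes of the class II genes ran from 0.12 ± 0.06 for H2-Ab1 to 0.22 ± 0.07 for H2-Eb1, the last close to H2-D1, and 8 of 9 members had an unadjusted p under 0.05, against 6.32% of all genes, so the calls do not show that the classes differ in slope. The macrophage slopes of the class II genes ran from 0.25 ± 0.07 for H2-Eb1 to 0.33 ± 0.06 for H2-Aa, with a largest adjusted p of 0.00571. The macrophage calls did not hold beside more covariates: with the other scores, or with 3 principal components, the macrophage score was called for 0 of 9 members and the interferon score for 5.

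The difference between the 2 slopes was tested gene by gene in that model. It was called for Tap1 (0.55 ± 0.12, adjusted p 0.000846) and H2-T23 (0.31 ± 0.07, adjusted p 0.00217) by limma, against 2.11% of all genes rising and 3.44% falling. B2m fell just outside (0.17 ± 0.06, adjusted p 0.0505). For the class II genes the differences were negative and none was called, from -0.20 ± 0.09 for Cd74 (adjusted p 0.193) to -0.03 ± 0.12 for H2-Eb1 (adjusted p 0.944). For H2-K1 (adjusted p 0.0851) and H2-D1 (adjusted p 0.118) it did not pass either. The test thus separated the slopes for 2 of the 9 genes, and not for the classes as such.

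**Figure D3:**
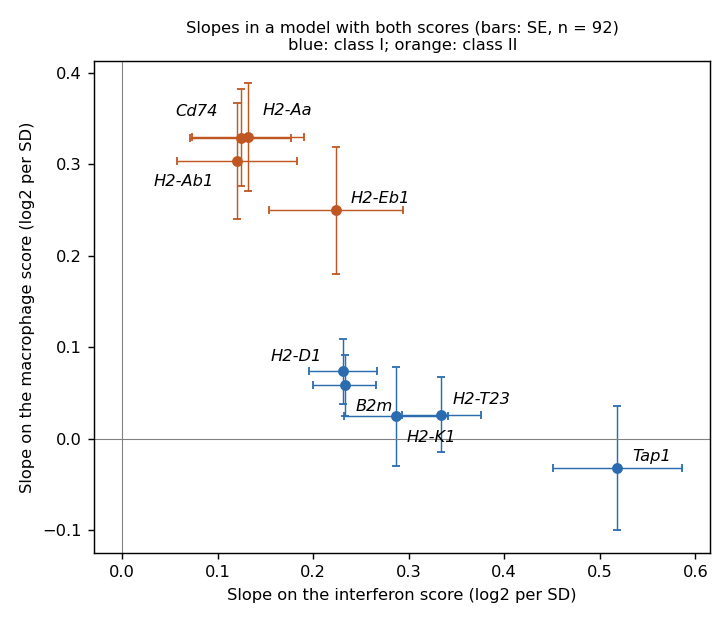
Slope of each MHC gene on the interferon score (horizontal) and on the macrophage score (vertical) from 1 limma model holding both, in log2 per SD of the score, with SE bars. The 4 class II genes lie higher than the 5 class I genes, while on the horizontal axis H2-Eb1 (0.22) is level with H2-D1 and B2m (both 0.23) within the SE bars.

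Other cell types moved with the members to unequal degrees. The fibroblast score was called for 9 of 9 members (11.6% of all genes rising), but it had an r of 0.808 with the macrophage score. It was called for 6 members without animal 21, and for 0 with the other scores or with 3 principal components as covariates. The adipocyte score was called for H2-K1, H2-D1 and B2m (3.76% of all genes rising), with slopes of 0.19 ± 0.05, 0.19 ± 0.04 and 0.20 ± 0.03 (SE), and for none of the other 6. Within the 5 runs of title numbers r ranged from -0.223 to 0.651 for H2-K1, from -0.150 to 0.852 for H2-D1 and from -0.03 to 0.732 for B2m, so the relation did not hold within every run. The endothelial and dendritic scores were called for 0 of 9 by limma, against 5.39% and 0.126% of all genes rising. At an unadjusted p under 0.05 they had 1 of 9, H2-Ab1 with a negative slope, and 0 of 9, against 20.9% and 7.89% of all genes. The dendritic score rested on 3 genes, Zbtb46, Cd209a and Irf8. The summed unlogged level of the macrophage list ran from 54.5 to 743 over animals and that of the 4 class II genes from 25.6 to 204. The part of cell number in the MHC values was not tested.

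The machinery that serves each class was looked at through fixed lists. Of 16 class I machinery genes, 7 rose with H2-D1, 7 with B2m, 5 with H2-K1, 5 with H2-T23 and 4 with Tap1, and none fell. With class II members, 6 of the same list rose with H2-Aa, 5 with H2-Ab1, 6 with H2-Eb1 and 6 with Cd74. Over all genes, rising calls came to 0.558% for H2-K1, 0.662% for Tap1, 1.49% for H2-T23, 4.66% for H2-D1 and 4.85% for B2m. They came to 3.46% for H2-Eb1, 4.29% for H2-Ab1, 6.58% for H2-Aa and 7.63% for Cd74. Counts under different members thus have unlike backgrounds, and differences between them were not tested. The median slope of the 16 genes on B2m was 0.06, against -0.0049 for all genes. Psmb8 rose with B2m by 0.42 ± 0.04 (SE) per SD, Psmb9, its partner in the immunoproteasome, by 0.38 ± 0.06, and Nlrc5, the class I transactivator, by 0.58 ± 0.08 (limma, largest adjusted p 8.28e-07). The housekeeping chaperones Calr and Canx did not pass for any member. Of 8 class II machinery genes, 7 rose with Cd74, 5 with H2-Aa, 4 with H2-Ab1 and 4 with H2-Eb1. Among class I members, 5 of the 8 rose with H2-T23, 3 with H2-D1, 3 with B2m, and 0 with H2-K1 and Tap1, whose all-gene shares were the smallest. Macrophage markers rose with the same class II genes, 11 of 11 with Cd74, 11 with H2-Aa, 10 with H2-Ab1 and 10 with H2-Eb1. With class I members, 10 of 11 rose with H2-D1, 10 with B2m, 9 with H2-T23, 1 with Tap1 and 0 with H2-K1. The part of these markers in the machinery counts was not tested. H2-DMb1, a chain of the peptide editor of class II, rose with Cd74 by 0.60 ± 0.06, Ctss, the protease that trims the invariant chain, by 0.62 ± 0.08, and Ciita, the class II transactivator, by 0.38 ± 0.05 (limma, largest adjusted p 4.22e-08).

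Although no member split, H2-Ea did. H2-Ea encodes the E alpha chain, the partner of H2-Eb1, and its deposited line carries a loss-of-function label. It lay between -3.86 and -1.92 in 19 animals and between 0.64 and 3.90 in the other 73, a gap of 2.56 that ranked 16 among 13441 genes. Of the low animals, 15 shared the lowest value, -3.86. At values this low, the size and rank of a gap depend on the log2 scale and on any offset in it, which is not given. Low animals occurred in all 5 runs of title numbers, as 6 of 33, 3 of 14, 3 of 21, 3 of 11 and 4 of 13. No part of the H2-Ea transcripts was shared with another gene by 31-base words.

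Over all 92 animals, no class II member was called with H2-Ea: the slopes ran from -0.04 ± 0.07 (SE) for H2-Eb1 to 0.05 ± 0.06 for Cd74, with a smallest adjusted p of 0.946 by limma. On normal scores of ranks the same 4 slopes were all positive, from 0.24 ± 0.10 for H2-Eb1 to 0.38 ± 0.10 for Cd74, and did not pass (limma, adjusted p 0.406 and 0.102), so the slopes depend on the scale. Within the 73 animals above the gap, H2-Ea rose with class II. This comparison of animals set apart by H2-Ea itself was chosen after the values had been seen. All 4 class II members and H2-T23 were called there (limma, 5 of 9 members, against 0.729% of all genes rising). Macrophage markers moved with them: 8 of 11 rose with H2-Ea in these animals, such as Mpeg1 (0.49 ± 0.07, SE) and Lyz2 (0.36 ± 0.06), and their part in the class II result was not tested. The class II slopes per SD of H2-Ea ran from 0.39 ± 0.05 (SE) for Cd74 to 0.42 ± 0.05 for H2-Ab1, with adjusted p of at most 9.37e-05. Pearson's r in the 73 animals was 0.635 with H2-Aa, 0.671 with H2-Ab1, 0.575 with H2-Eb1 and 0.660 with Cd74 (permutation p of 1e-05 each, rho 0.613 to 0.671), and 0.543 to 0.582 without the 2 farthest animals. H2-K1, H2-D1, B2m and Tap1 had slopes of 0.11 to 0.18 that did not pass.

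H2-Eb1 had no second level of its own, but its ratio to Cd74 was lopsided. The within-animal difference H2-Eb1 minus Cd74 was -1.78 ± 0.37 (SD, n = 92), with a skewness of -1.26 and a range from -2.84 to -1.13. A mixture of 2 normals improved its BIC by 28.5, the largest of the 36 differences between members, followed by H2-Aa minus H2-Eb1 at 18.4. Of the other 34, H2-Ab1 minus H2-Eb1 improved by 7.88, and the rest had negative gains, from -13.5 to -4.31. Each of the 3 differences between H2-Eb1 and another class II gene had a positive BIC gain, whereas the 3 without H2-Eb1 ran from -12.2 to -10.2. This difference and H2-K1 minus H2-D1 were chosen for further tests after the values had been seen.

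**Figure D4:**
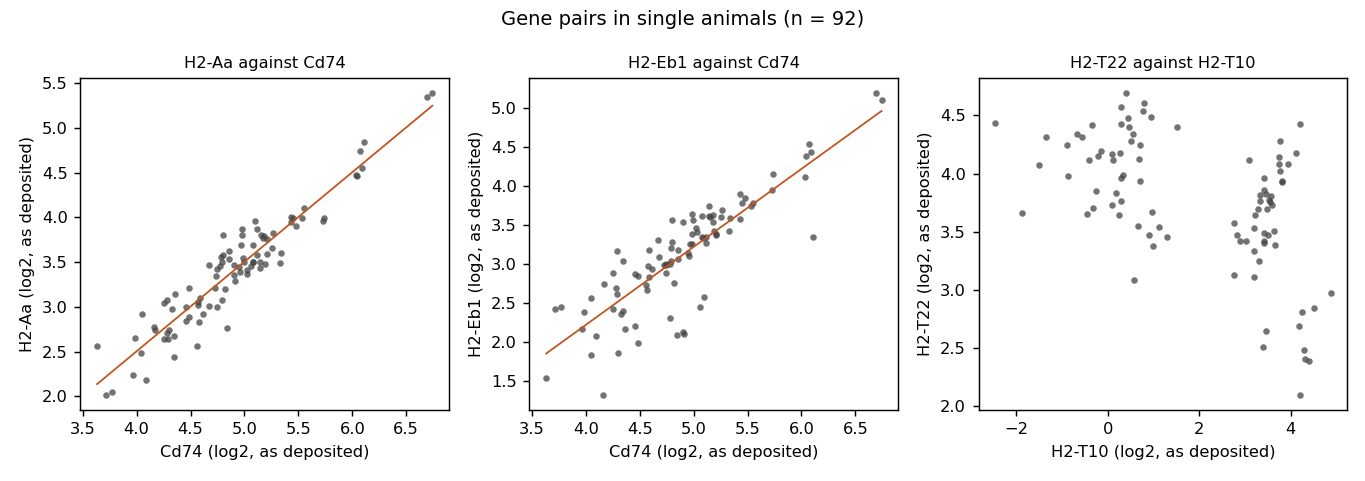
Deposited log2 values of gene pairs in single animals (1 point per animal, n = 92); the line in the left and middle panels is the mean difference with a slope of 1. H2-Aa follows Cd74 closely, several animals lie well below the line for H2-Eb1, and H2-T22 against H2-T10 falls into separate clouds.

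Few genes followed the ratio. Against H2-Eb1 minus Cd74, 3 of 13439 genes were called (0.0223%): Hmga1 (chr17:27556497-27563674), Gm20522 (chr17:35122738-35126440) and Atp6v0e (chr17:26663231-26699647). All 3 lie on chromosome 17, which holds 4.84% of the genes in the table. Hmga1, a chromatin architectural protein, had an r of 0.636 and a rho of 0.405 (permutation p 1e-05 and 1e-04), with 0.595 without the 2 farthest animals and 0.121 to 0.731 within the runs. Gm20522 had an r of -0.633 and a rho of -0.419 (permutation p 1e-05 and 3e-05), with -0.781 to -0.513 within the runs. Gm20522 overlaps Gpank1 in position, so reads from the stretch they share cannot be told apart without strand information. On normal scores of ranks 0 genes were called by limma, without the 2 farthest animals 2 were called, and among genes with a mean of at least 1 only Hmga1. Other settings added genes elsewhere: 7 were called on the log2(value + 1) scale, 3 of them on chromosome 17, 7 with principal components, 5 of them there, and 5 with scores, 3 of them there.

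Neighbours of the MHC were followed through an interval from 1 Mb before H2-K1 to 1 Mb after H2-T23, which held 119 genes besides members. Over all genes and in either direction, 0.64% were called with H2-K1, 5.26% with H2-D1, 1.96% with H2-T23, 5.41% with B2m, 0.818% with Tap1, 11.2% with H2-Aa, 7.5% with H2-Ab1, 4.57% with H2-Eb1 and 13.6% with Cd74. The share was higher in the interval than outside it for each of the 9 members, without a test of that difference. Counting interval genes called with at least 1 chromosome 17 member, the share was 29.4%, against 14.9% of genes outside. It fell to 15.1% against 1.54% with 3 principal components, and to 6.72% against 0.413% with the 6 scores as covariates. By member, the share called was 9.24% against 0.518% outside for H2-K1, 14.3% against 1.80% for H2-T23, and 20.2% against 13.5% for Cd74, which itself lies on chromosome 18. Of the 119 genes, 14 are in one of the lists used here. Of the 105 interval genes in none of the lists, 4 were called with H2-K1 (3.81%), 7 with H2-D1 (6.67%), 5 with H2-T23 (4.76%), 0 with Tap1 and 14 with Cd74 (13.3%). Among them Cfb, complement factor B, rose with H2-D1 by 0.38 ± 0.05 (SE) and C4b, a component of the classical complement route, by 0.41 ± 0.07 (limma, largest adjusted p 1.42e-05). Among the 525 other genes of chromosome 17, calls ran from 0 with H2-K1 and 1 with Tap1 through 8 with H2-T23 and 14 with H2-D1 to 54 with H2-Aa (10.3%) and 65 with Cd74 (12.4%).

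A fit of H2-Ea over all 92 animals, whose values lie in 2 clouds, had 15 called genes (0.112% of 13440), of which 11 lay on chromosome 17 and 9 in the interval. They included H2-T22 (0.29 ± 0.05, SE), Rab11bos1 (-0.39 ± 0.07) and H2-T23 (0.24 ± 0.04), with adjusted p of at most 0.00120 by limma. Outside members, 6.78% of interval genes were called against 0.0451% elsewhere. Of the 4 called genes on other chromosomes, 2 were Rps18-ps5 and Rps18-ps6, processed copies of Rps18, which lies in the interval and was itself called with the opposite sign (-0.27 ± 0.05). Of their 31-base words, 69.8% of those in Rps18-ps5 and 68.7% of those in Rps18-ps6 also occur in Rps18. Within the 73 animals above the gap, r with H2-Ea was 0.228 for H2-T22 (permutation p 0.0520), -0.108 for Rps18 (p 0.362), 0.172 for Rps18-ps5 (p 0.144), -0.316 for Rab11bos1 (p 0.00676) and 0.575 for H2-T23 (p 1e-05), among 23 relations computed. There r was -0.469 for Rcan2 (p 3e-05), 0.378 for Pbx2 (p 0.00098), -0.323 for Ndufa7 (p 0.00515), -0.327 for Gpank1 (p 0.00505) and -0.289 for Abhd16a (p 0.0130), and for the other 5 called genes it lay between -0.192 and 0.192. Without animal 21, 10 genes were called, with the 6 scores as covariates 6, and without the 2 most outlying animals 7. On normal scores of ranks 18 were called, of which 8 were among the 15, and with 3 principal components 16, of which 11 were.

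**Figure D5:**
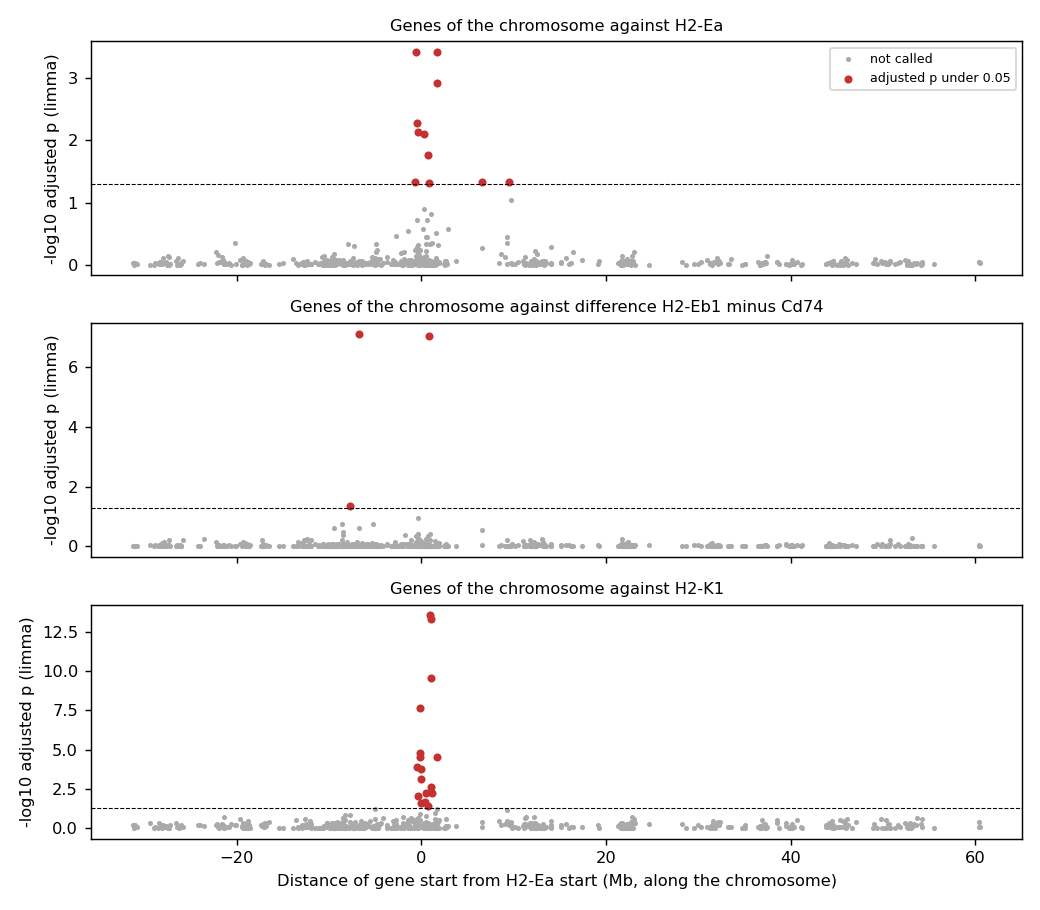
Negative log10 adjusted p of each chromosome 17 gene against H2-Ea, the difference H2-Eb1 minus Cd74, and H2-K1 (limma, 92 animals), by distance from the start of H2-Ea in Mb; the dashed line is an adjusted p of 0.05. Among the genes plotted, all called for H2-K1 and 9 of the 11 called for H2-Ea lie in the MHC interval around 0. For the difference, 2 of the 3 called lie several Mb before that interval. Of the 86 genes called for H2-K1 over all chromosomes, 17 lie on chromosome 17.

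A second gene of the interval with separate levels sits beside H2-T23. H2-T10, a non-classical class I gene, lay between -2.45 and 1.51 in 45 animals and between 2.77 and 4.87 in the other 47, across a gap of 1.26, and its BIC improved by 62.6 with 2 components. H2-T22 is a close copy, with 47.2% of its 31-base words also in H2-T10. Against H2-T23, H2-T22 rose by 0.31 ± 0.05 (SE) and H2-T10 fell by 0.77 ± 0.18 per SD (limma, largest adjusted p 0.00573, with 0.469% of all genes falling). H2-T10 also fell and H2-T22 rose with the difference H2-K1 minus H2-D1, by -0.99 ± 0.16 and 0.26 ± 0.05, among 8 called genes (0.0595%). Within either cloud of H2-T10, no relation with H2-T22, H2-T23, H2-K1, H2-D1 or B2m had an r beyond -0.290 to 0.224. Division of reads between H2-T10 and H2-T22 was not tested.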

How the data were processed

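Polyadenylated RNA of 92 quadriceps samples was sequenced after library preparation from 500 ng of RNA, per the labels' protocols. The deposited table holds log2 values per gene. The scale is read from the values, since 2 to the power of the values summed to 898071 to 1140761 per sample. The submitters' processing notes name bcl2fastq, MultiQC, kallisto 0.50.1, edgeR and the build mm10, with no role or order. Whether the log2 values deposited by the authors sum over transcripts, which strand was counted and how weak genes were removed are not given in the sources used here.

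From 13456 lines, 15 repeats were removed. Positions and exon lengths come from GENCODE M21, which holds 13255 of the 13441 identifiers, and promoters from RefSeq (GRCm38.p6). Slopes were fitted with limma 3.58.1 (R 4.3.3, empirical Bayes with trend) over all genes, with Benjamini-Hochberg adjustment. Correlations were tested by two-sided permutation (100000 resamples). The limma and mixture steps were tested on simulated data. Alternatives were title-number blocks, 3 principal components or 6 scores as covariates, a log2(value + 1) scale, a mean of at least 1, ranks, and left-out animals. Samples are separate titles, and p-values measure the spread between them.

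The members, lists and tests were chosen with earlier results of these data known. Named genes are the 9 members, the 3 highest and 1 lowest non-members by r for each (mean of at least 1), listed machinery and class I genes, and, in the interval, the widest gaps and the smallest adjusted p per member. Genes called with H2-Ea and with the 2 differences were named after their values were seen.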

Additional observations from a re-analysis of the deposited data

How the results depend on the processing

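No paired analysis was possible because all 92 animals form 1 group. The count of called member pairs was 36 and stayed between 33 and 36 with title-number blocks, ranks, a log2(value + 1) scale, the filter on the mean and left-out animals. It fell to 17 with 3 principal components and to 13 with the 6 scores as covariates, where H2-D1 with H2-T23 (slope -0.0282) and H2-T23 with H2-Eb1 (slope -0.0165) turned negative. With principal components the members called were 0 of 9 for the macrophage and the fibroblast score, 5 for interferon and 1 for endothelial. With the other scores as covariates they were 0 for macrophage, 0 for fibroblast and 5 for interferon. Interval genes called for at least 1 chromosome 17 member were 29.4% (14.9% outside), falling to 15.1% (1.54% outside) with principal components and 6.72% (0.413% outside) with scores. The cause was not tested. B2m exceeded Tap1 by 4.55 as deposited and by 7.22 per kilobase, since exon lengths differ. Depth is unknown, so the lowest values of Tap1 and H2-Ea carry an unmeasured counting error.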
